A study of Homo sapiens with 34 samples.

Results

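The interferon-stimulated genes measured here are 43 genes whose transcription is induced by type I interferon in most human cells, from the membrane proteins of the IFITM family to the ISG15 conjugation system. They were chosen by name from general knowledge of the interferon response, and all 43 were among the 17587 genes listed in at least 1 of 6 comparisons. In all 6 comparisons 42 of them were listed, since *CMPK2* was not listed in BV-173. RNA was sequenced from 3 established human lines of B-cell acute lymphoblastic leukaemia (B-ALL), of which BV-173 carries the BCR-ABL fusion, RS4;11 the MLL-AF4 fusion and NALM-6 the ETV6-PDGFRB fusion. In each line, cells carrying a lentiviral shRNA against *CCND3* with a red fluorescent marker, sorted on day 4 after transduction, were compared with cells carrying a scrambled shRNA. Cells kept for 3 days in 1 µM palbociclib, an inhibitor of the kinases CDK4 and CDK6, were compared with cells kept in its solvent DMSO. The 34 samples formed 12 groups, 10 of 3 samples and 2 of 2 samples (BV-173 with DMSO, and NALM-6 after *CCND3* knockdown). A single shRNA was used for the RNA-seq, and each driver fusion was represented by 1 line.

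Type I interferons bind the IFNAR1 and IFNAR2 receptor chains, and the kinases JAK1 and TYK2 then phosphorylate STAT2. STAT2 and IRF9 are parts of ISGF3, the complex that binds the interferon-stimulated response element (ISRE) in the promoters of most interferon-stimulated genes. The products block virus entry, degrade or sense RNA, attach ISG15 to other proteins, and adjust the signal itself. Many lymphoid cells transcribe part of this set without added interferon.

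The deposited tables held 1 level per group and comparison, scaled by the authors within the pair of groups, so the spread between replicate samples and the depth per sample are unknown. All levels are given in these scaled units, and each table was normalized separately, so levels compared across tables or lines are approximate. The change was log2((treated level + 1)/(control level + 1)), abbreviated log2 ratio. Within a line a gene was called higher or lower at a fold of at least 1.5 where the mean of the 2 levels was at least 10, with no test and no replicate check. Over the lines, the 3 log2 ratios of a treatment were tested with limma among 11800 genes, and "rose" and "fell" are used only for genes at a Benjamini-Hochberg adjusted p under 0.05. Both treatments were in 1 fit, which estimated 1 spread for a gene and drew it towards the spread of genes at a similar level. That spread is the spread between cell lines, and differences between replicate cultures are not part of it. Each "SE over 3 lines" comes from this fit, so it is the same for both treatments of a gene. It is not the SE of the 3 log2 ratios of a treatment taken alone. The fit took the log2 ratios of both treatments of a line as independent, and its adjusted p-values make no allowance for a correlation between them. Where values are given in threes, they follow the order NALM-6, RS4;11, BV-173.

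*CCND3* itself stood at 24.2%, 20.7% and 31.1% of the scrambled level after knockdown in the 3 lines, and at 78.0%, 81.8% and 76.0% of the DMSO level with palbociclib. All 10 B-lineage markers were listed above the minimum level in every comparison, while the 4 T-cell markers summed to at most 7.70 and the 4 erythroid markers to at most 1.63. The plasmacytoid dendritic markers CLEC4C and GZMB were not listed, and the remaining 2 of 4, mostly *IL3RA*, summed to 48.8 to 88.3 with DMSO and 68.5 to 235 with palbociclib, and to 67.0 to 121 in scrambled and 116 to 310 in knockdown cells. The 5 myeloid markers summed to 105 to 641 with DMSO and 174 to 586 with palbociclib, and to 92.8 to 972 in scrambled and 131 to 1168 in knockdown cells, and CD14 was under the minimum level in all groups. The samples were established cell lines, so these sums do not by themselves show that cells of another type were present. The part of these markers in the results was not tested. Bulk RNA does not separate the number of cells that transcribe a gene from its RNA per cell.

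Promoters of 6 of the genes are printed because each holds the core of the ISRE and because the genes moved in opposite directions with palbociclib. A promoter here is the 300 bases from 250 before to 50 after a transcription start, from RefSeq on GRCh38.p14, written 5′ to 3′ on the gene's own strand, and the capitals mark every match to GAAANNGAAA, the core of the ISRE, on either strand. *HERC5* (chr4:88456869-88457168, + strand) and *OAS3* (chr12:112938224-112938523, + strand) fell with palbociclib. *BST2* (chr19:17405581-17405880, − strand), *ISG20* (chr15:88638766-88639065, + strand, 1 of its annotated starts), *LGALS3BP* (chr17:78979874-78980173, − strand) and *ISG15* (chr1:1013247-1013546, + strand) rose.
HERC5: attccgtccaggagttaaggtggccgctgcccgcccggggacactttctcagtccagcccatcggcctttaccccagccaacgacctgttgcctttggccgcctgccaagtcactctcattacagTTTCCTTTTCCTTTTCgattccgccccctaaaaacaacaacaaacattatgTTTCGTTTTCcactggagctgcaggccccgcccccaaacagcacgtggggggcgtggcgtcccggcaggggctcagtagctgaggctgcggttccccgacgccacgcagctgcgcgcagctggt
OAS3: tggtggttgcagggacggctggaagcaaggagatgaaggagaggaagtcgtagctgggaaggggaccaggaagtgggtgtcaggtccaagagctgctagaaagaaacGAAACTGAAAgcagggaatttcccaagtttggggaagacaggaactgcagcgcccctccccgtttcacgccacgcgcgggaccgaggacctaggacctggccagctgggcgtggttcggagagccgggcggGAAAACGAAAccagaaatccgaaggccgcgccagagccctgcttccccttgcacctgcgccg
BST2: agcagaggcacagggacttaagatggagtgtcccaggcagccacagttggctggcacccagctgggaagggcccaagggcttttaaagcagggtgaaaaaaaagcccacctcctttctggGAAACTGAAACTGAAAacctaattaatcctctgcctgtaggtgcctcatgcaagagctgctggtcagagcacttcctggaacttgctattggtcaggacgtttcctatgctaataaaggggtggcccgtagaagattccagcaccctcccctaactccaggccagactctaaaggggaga
ISG20: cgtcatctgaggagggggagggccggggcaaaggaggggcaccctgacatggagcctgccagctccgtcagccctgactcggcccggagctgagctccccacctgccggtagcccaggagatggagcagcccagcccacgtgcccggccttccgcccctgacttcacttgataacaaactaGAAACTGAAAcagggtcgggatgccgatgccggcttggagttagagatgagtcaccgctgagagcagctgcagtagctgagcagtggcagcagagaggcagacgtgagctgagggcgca
LGALS3BP: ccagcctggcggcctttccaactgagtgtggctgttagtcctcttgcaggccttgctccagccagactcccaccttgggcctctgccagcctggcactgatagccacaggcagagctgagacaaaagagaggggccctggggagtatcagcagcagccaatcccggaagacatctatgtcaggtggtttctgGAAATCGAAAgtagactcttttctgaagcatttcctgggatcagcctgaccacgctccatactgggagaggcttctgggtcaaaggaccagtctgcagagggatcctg
ISG15: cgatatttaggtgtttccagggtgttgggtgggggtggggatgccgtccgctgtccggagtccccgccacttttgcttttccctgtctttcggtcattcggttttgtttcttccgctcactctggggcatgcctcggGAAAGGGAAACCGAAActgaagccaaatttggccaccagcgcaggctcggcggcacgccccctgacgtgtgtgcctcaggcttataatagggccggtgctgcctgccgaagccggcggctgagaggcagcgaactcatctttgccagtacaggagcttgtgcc

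In *HERC5* the 3 matches lay on the opposite strand, with first bases 125, 119 and 74 bases upstream of the start, and the matches at 125 and 119 overlapped. *OAS3* held matches 143 and 12 bases upstream. *BST2* and *ISG15* each held an overlapping pair, at 130 and 124 bases and at 113 and 107 bases upstream. *ISG20* and *LGALS3BP* held 1 match each, 69 and 58 bases upstream. A promoter was given for 35 of the 43 genes, and 25 of them (71.4%) held the ISRE core in at least 1 promoter, against 4.38% of 27305 genes and 3.57% of 35116 promoters. The core of the gamma-activated sequence, TTCNNNGAA, searched on both strands and counted also where it overlapped an ISRE match, was held by 11 of 35 (31.4%), against 9.38% of all genes and 7.66% of all promoters. Of the 39 genes in the limma test, all 5 that fell with palbociclib held the ISRE core. Of the 8 that rose, 4 held it, 2 did not (*HERC6* and *IRF9*) and 2 had no promoter given (*MX2* and *OAS2*). Of the 26 called in neither direction, 13 held it, 7 did not and 6 had none given. A match is a run of letters and not a measured binding site.

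The lines differed widely in how much of the set they transcribed before treatment. Expressed as a share of the column total (parts per 1000000) and averaged over the scrambled and DMSO groups, *IFITM2* was the highest (500.4) and *LGALS3BP* came next (166). *IFITM2* encodes a membrane protein that restricts virus entry, and *LGALS3BP* encodes a secreted galectin-binding glycoprotein. They were followed by *PARP14* (109), *DTX3L* (106), *TRIM22* (73.5) and *OAS3* (65.5). Scaled by transcript length as level per kb, the order was *IFITM2* (13065), *IFITM1* (1426) and *LGALS3BP* (1405).

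*IFITM3*, a restriction factor at the endosome, showed the widest spread, with a mean control share of 114 in BV-173, 3.32 in RS4;11 and 0.554 in NALM-6. *IFITM1*, its neighbour that acts at the cell surface, followed the same order with 119, 40.2 and 3.03. In contrast, *OAS3*, a synthetase of the 2′-5′ oligoadenylates that switch on RNase L, had shares of 126 in RS4;11 and 67.3 in NALM-6 but 2.88 in BV-173. The exonuclease gene *ISG20* stood at 69.3 in RS4;11 and at 4.13 and 3.47 in NALM-6 and BV-173. *IFI35*, *IRF9* and *DTX3L* differed by 1.10-fold to 1.16-fold between the lines. In scrambled cells, 18 of 39 genes had their highest share in RS4;11, 16 in NALM-6 and 5 in BV-173, and with DMSO the numbers were 18, 10 and 10 of 38. The 3 IFITM genes are near-identical in sequence, so that the counting of reads may have been split between them, and their order in a line is uncertain.

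**Figure D1:**
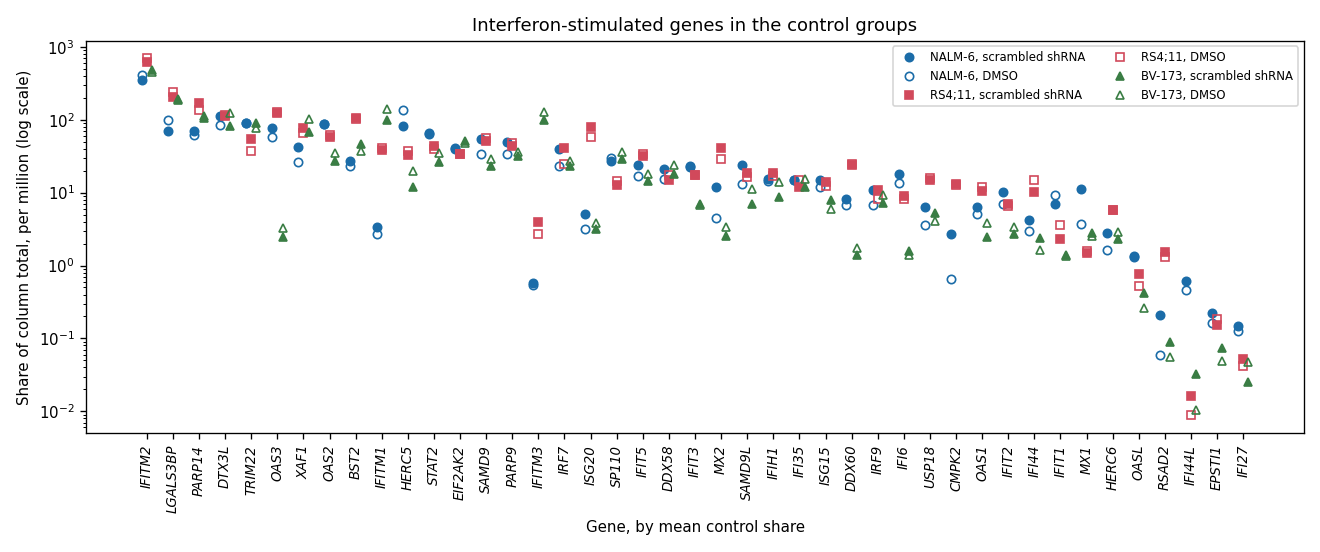
Share of the column total in parts per 1000000 (log scale) of each interferon-stimulated gene in the control groups, filled symbols for scrambled shRNA and open symbols for DMSO, 1 authors' value per group. The symbols of *IFITM1*, *IFITM3*, *OAS3* and *ISG20* lie far apart between lines, while those of *DTX3L* and *IFI35* lie close together.

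CCND3 knockdown left most of the set within 1.5-fold of the scrambled control. In NALM-6, 2 of 38 genes at sufficient level were called higher and 5 lower, against 8.36% higher and 10.3% lower among all 11726 genes, and the median log2 ratio of the set was -0.07. In RS4;11, 9 of 40 were higher and 2 lower (all genes 10.2% and 11.1%), with a median of 0.09. In BV-173, 5 of 37 were higher and 2 lower (all genes 3.96% and 5.25%), with a median of -0.09. The share of higher genes was thus 22.5% in RS4;11 and 13.5% in BV-173, each above that of all genes, and 5.26% in NALM-6, below it. *LGALS3BP* was the only gene of the set called in the same direction in all 3 lines.

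With palbociclib more of the set was called higher in each line than after knockdown, as was also the case over all genes. In NALM-6, 15 of 39 genes were called higher and 4 lower, against 18.6% and 17.5% of all genes, and the median log2 ratio was 0.42. In RS4;11, 14 of 40 were higher and 6 lower (all genes 16.3% and 16.4%), with a median of 0.23. In BV-173, 8 of 37 were higher and 5 lower (all genes 14.4% and 14.2%), with a median of 0.09. The median over all genes lay between -0.02 and 0.00 in the 6 comparisons. Higher calls thus made up 38.5%, 35.0% and 21.6% of the set in the 3 lines, each above the share of all genes. The shares of lower calls (10.3%, 15.0% and 13.5%) lay near those of all genes in RS4;11 and BV-173, and in NALM-6 below the 17.5% of all genes.

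Over the 3 lines, limma called 13 of 39 genes with palbociclib, of which 8 rose (20.5%; all genes 12.7%) and 5 fell (12.8%; all genes 16.5%). *BST2*, *ISG20*, *LGALS3BP*, *IRF9*, *MX2*, *ISG15*, *HERC6* and *OAS2* rose, and *HERC5*, *OAS3*, *EIF2AK2*, *PARP14* and *IFI44* fell. After knockdown limma called none of the 39, and 6 of them (15.4%) had an unadjusted p under 0.05, against 21.0% of all genes. Among all 11800 genes limma called 0 higher (0%) and 1 lower (0.00847%) after knockdown, the latter being *CCND3*. With only 2 lines in the fit the palbociclib calls changed, and over all genes the called share went from 29.2% to 10.6% without NALM-6, 9.70% without RS4;11 and 21.5% without BV-173. Without RS4;11 only *BST2* and *HERC5* were called, without NALM-6 these and *ISG20*, *LGALS3BP* and *ISG15*, and without BV-173 10 of the 13 and also *IFIT1*, *DDX58* and *STAT2*.

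**Figure D2:**
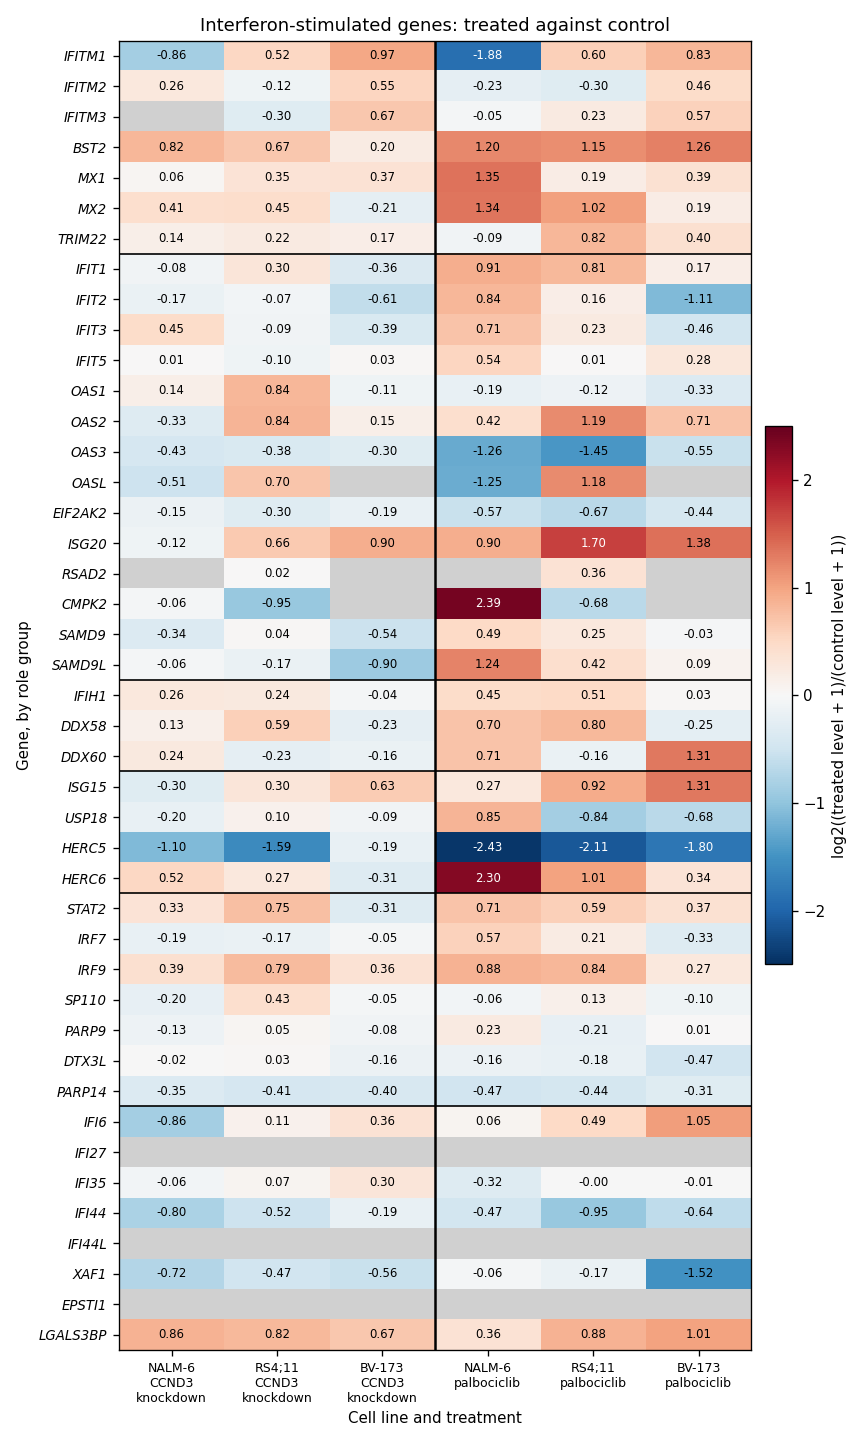
Log2 ratio of treated over control level for the 43 genes (rows, in 6 role groups separated by lines) in the 3 lines after knockdown and with palbociclib (columns), 1 value per pair of groups. Grey marks a gene that was not listed or had a mean level under 10. *BST2* is red and *HERC5* is blue in all 6 columns, and *IFITM1* and *CMPK2* change colour between lines.

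The largest change over the lines was in the ISG15 system. *HERC5*, the main ligase that joins ISG15 to newly made proteins, stood at 2649.7, 738 and 378 with DMSO, in the order of lines given above, and at 492, 169.8 and 108 with palbociclib. It was lower in every line, and it fell by 2.11 ± 0.25 on the log2 scale, or 4.33-fold (SE over 3 lines, adjusted p = 0.00191, limma). After knockdown it went from 1491, 630.2 and 229 in scrambled cells to 694, 208 and 200.4, a lower level in NALM-6 and RS4;11 and a nearly equal one in BV-173 (log2 ratios -1.10, -1.59 and -0.19). The mean knockdown change was -0.96 ± 0.25 (SE over 3 lines, adjusted p = 0.0941, limma).

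*ISG15*, the ubiquitin-like modifier itself, stood at 233, 246 and 116 with DMSO and at 281, 468 and 288 with palbociclib and rose by 0.83 ± 0.24 (SE over 3 lines, adjusted p = 0.036, limma). The change was small in NALM-6 and largest in BV-173 (log2 ratios 0.27, 0.92 and 1.31). After knockdown the levels went from 269, 263 and 155 to 217, 324 and 240.2, lower in NALM-6 and higher in the other lines. *HERC6*, a ligase of the HERC family, went from 32.1, 114 and 56.0 to 162, 231 and 71.0 with palbociclib and rose by 1.22 ± 0.35 (SE over 3 lines, adjusted p = 0.0361, limma), with its largest change in NALM-6. After knockdown its log2 ratios were 0.52, 0.27 and -0.31.

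*USP18* encodes the protease that removes ISG15 and also damps the type I receptor. With palbociclib it moved from 69.0, 309 and 79.9 to 126, 172 and 49.6, so it was called higher in NALM-6 and lower in RS4;11 and BV-173. After knockdown it stayed between log2 ratios of -0.20 and 0.10.

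**Figure D3:**
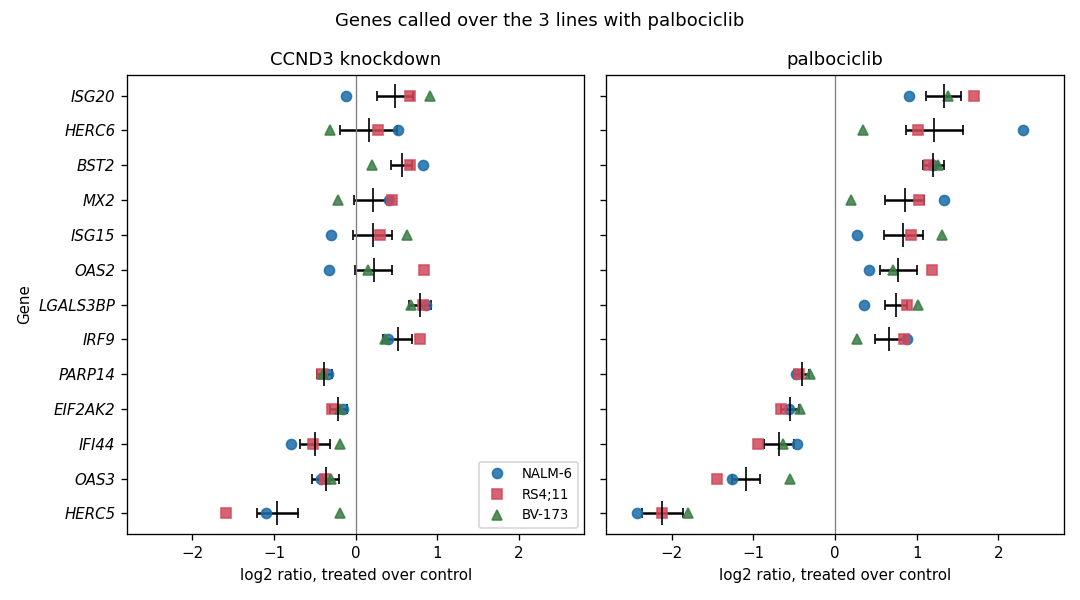
Log2 ratios of the 13 genes called by limma with palbociclib, after knockdown (left) and with palbociclib (right), 1 symbol per line, black ticks for the mean over the 3 lines. Bars give ± the SE of the limma fit, which is the same for both treatments of a gene. With palbociclib all 3 lines lie on the same side of 0 for each gene, and after knockdown the lines of *ISG20*, *HERC6*, *MX2*, *ISG15* and *OAS2* lie on both sides.

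Of the 7 genes that act at membranes or on entering viruses, *BST2* and *MX2* rose with palbociclib. *BST2*, also called tetherin, holds budding virus at the cell surface. It went from 457, 2016 and 718 to 1048, 4484 and 1720.2 and was more than 2-fold higher in each line, a rise of 1.20 ± 0.13 (SE over 3 lines, adjusted p = 0.00178, limma). The 3 lines differed by 0.11 on the log2 scale between the lowest and the highest change. After knockdown it went from 498, 2000.3 and 901 to 883, 3175 and 1035, called higher in NALM-6 and RS4;11, with a mean change of 0.56 ± 0.13 (SE over 3 lines, adjusted p = 0.0809, limma).

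*MX2*, a dynamin-like GTPase at the nuclear pore, moved from 86.7, 569.8 and 65.0 with DMSO to 221, 1158 and 74.4 with palbociclib, higher in NALM-6 and RS4;11 and little changed in BV-173, and rose by 0.85 ± 0.23 (SE over 3 lines, adjusted p = 0.0307, limma). Its knockdown log2 ratios were 0.41, 0.45 and -0.21. *MX1*, the related GTPase of the cytoplasm, was called higher with palbociclib only in NALM-6, where it went from 71.7 to 185, and its mean change was 0.64 ± 0.24 (SE over 3 lines, adjusted p = 0.0814, limma). *TRIM22*, an E3 ligase that restricts viruses, was called higher only in RS4;11 with palbociclib (730.3 to 1292).

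The IFITM genes split by line. With palbociclib *IFITM1* went from 51.9, 822 and 2687 to 13.4, 1248 and 4768, called lower in NALM-6 and higher in RS4;11 and BV-173. Knockdown gave the same directions, from 62.3, 739.8 and 1908 to 33.9, 1064 and 3745, with calls in NALM-6 (lower) and BV-173 (higher). *IFITM2* was within 1.5-fold everywhere, with log2 ratios of 0.26, -0.12 and 0.55 after knockdown and -0.23, -0.30 and 0.46 with palbociclib. *IFITM3* was called only after knockdown in BV-173 (1943 to 3094), and in NALM-6 it was near the minimum level. In BV-173, all 3 were higher than control under both treatments, with log2 ratios from 0.46 to 0.97.

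Of the 14 genes that bind, modify or degrade RNA and nucleotides, *ISG20* and *OAS2* rose with palbociclib and *OAS3* and *EIF2AK2* fell. *ISG20* encodes a 3′ to 5′ RNA exonuclease. It went from 61.0, 1164 and 73.6 to 115, 3787 and 193, called higher in every line, and rose by 1.33 ± 0.22 (SE over 3 lines, adjusted p = 0.00495, limma). After knockdown it went from 93.8, 1517 and 60.5 to 86.4, 2395 and 114, called higher in RS4;11 and BV-173 and slightly lower than scrambled in NALM-6.

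*OAS3* went from 1140.4, 2533 and 63.5 with DMSO to 475, 926 and 42.9 with palbociclib, called lower in NALM-6 and RS4;11, and changed by -1.09 ± 0.17 (SE over 3 lines, adjusted p = 0.00409, limma). After knockdown its log2 ratios were -0.43, -0.38 and -0.30, the same sign in each line and short of the 1.5-fold call. *OAS2*, another synthetase of the family, went from 1679, 1206 and 678 to 2244, 2749 and 1113 and rose by 0.77 ± 0.23 (SE over 3 lines, adjusted p = 0.0374, limma), with calls in RS4;11 and BV-173. After knockdown it was called higher only in RS4;11 (1094 to 1961). *OAS1*, the smallest enzyme of the family, was likewise higher after knockdown in RS4;11 (198 to 354) and had palbociclib log2 ratios of -0.19, -0.12 and -0.33. *EIF2AK2* encodes PKR, the kinase that stops translation on binding double-stranded RNA. It went from 781, 680.3 and 929 to 527, 428 and 687, changed by -0.56 ± 0.11 (SE over 3 lines, adjusted p = 0.00906, limma), and had knockdown log2 ratios of -0.15, -0.30 and -0.19.

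Of the IFIT genes, whose products bind foreign 5′ RNA ends, only *IFIT2* was called in opposite directions in different lines. *IFIT2* went from 138, 130.0 and 64.4 to 247, 145 and 29.3 with palbociclib, called higher in NALM-6 and lower in BV-173, and from 185, 131 and 53.2 to 165, 125 and 34.6 after knockdown, called lower in BV-173. *IFIT1* was called higher with palbociclib in NALM-6 and RS4;11 (log2 ratios 0.91, 0.81 and 0.17), and *IFIT3* in NALM-6 (0.71, 0.23 and -0.46). *IFIT5* was called nowhere. *OASL*, which enhances RIG-I signalling, was low in every line. With palbociclib it went from 26.2, 10.4 and 4.97 to 10.4, 24.8 and 4.50, called lower in NALM-6 and higher in RS4;11, and BV-173 was under the minimum level.

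*CMPK2*, a mitochondrial nucleotide kinase, changed most between lines. In NALM-6 it stood at 12.6 with DMSO and 70.3 with palbociclib, and in RS4;11 at 252 and 157, which gave log2 ratios of 2.39 and -0.68. After knockdown it went from 50.1 to 48.1 in NALM-6 and from 249 to 128 in RS4;11. *RSAD2*, which encodes viperin, was above the minimum level only in RS4;11, with log2 ratios of 0.02 after knockdown and 0.36 with palbociclib. *SAMD9L*, a growth-restraining antiviral factor, was higher with palbociclib in NALM-6 (252 to 596) and lower after knockdown in BV-173 (134 to 71.3), while the related *SAMD9* was called nowhere.

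**Figure D4:**
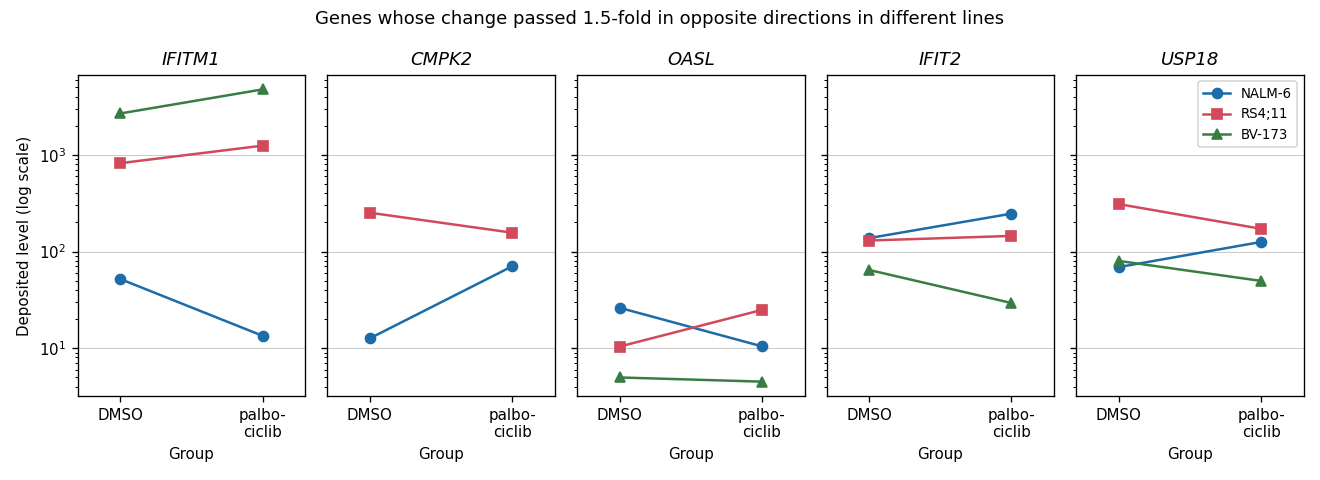
Deposited level (log scale) with DMSO and with palbociclib of the 5 genes whose change passed 1.5-fold in opposite directions in different lines, 1 line per cell line and 1 authors' value per point. The NALM-6 line of *IFITM1* and *OASL* slopes down while that of RS4;11 slopes up, and the reverse holds for *CMPK2* and *USP18*. *CMPK2* has no BV-173 line because it was not listed there.

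The 3 cytoplasmic RNA sensors had no lower call in any comparison. *DDX58*, which encodes RIG-I, was called higher after knockdown in RS4;11 and with palbociclib in NALM-6 and RS4;11 (palbociclib log2 ratios 0.70, 0.80 and -0.25), and in BV-173 it was slightly below control under both treatments. *DDX60*, a helicase that assists RIG-I, was higher with palbociclib in NALM-6 (131 to 216) and BV-173 (33.0 to 83.6). *IFIH1*, which encodes MDA5, stayed within 1.5-fold, with palbociclib log2 ratios of 0.45, 0.51 and 0.03. None of the 3 was called over the lines.

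Of the 7 genes for transcription factors and ADP-ribosylation or chromatin proteins, *IRF9* rose and *PARP14* fell with palbociclib. *IRF9*, the DNA-binding part of ISGF3, went from 132, 164 and 179.7 to 244, 295 and 217 and rose by 0.66 ± 0.18 (SE over 3 lines, adjusted p = 0.0273, limma). After knockdown it went from 201, 204 and 138 to 264, 353 and 177, higher than scrambled in each line and called in RS4;11, with a mean change of 0.51 ± 0.18 (SE over 3 lines, adjusted p = 0.156, limma). *STAT2*, its partner, was called higher in NALM-6 and RS4;11 with palbociclib (1252, 788 and 671 to 2043, 1191 and 870.5) and missed the threshold over the lines (adjusted p = 0.061, limma).

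*PARP14*, a mono-ADP-ribosyltransferase, had nearly the same change in all 6 comparisons, with log2 ratios of -0.35, -0.41 and -0.40 after knockdown and -0.47, -0.44 and -0.31 with palbociclib. Its palbociclib change was -0.41 ± 0.09 (SE over 3 lines, adjusted p = 0.0155, limma), less than the 1.5-fold call in any line, and its knockdown change was -0.39 ± 0.09 (SE over 3 lines, adjusted p = 0.0832, limma). *DTX3L* and *PARP9*, which form a ubiquitin ligase complex, were called in no line, nor were *IRF7*, the amplifying interferon regulatory factor, and *SP110*, a nuclear body protein. The palbociclib log2 ratios of *DTX3L* were -0.16, -0.18 and -0.47.

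Among the remaining 8 genes, *LGALS3BP* rose and *IFI44* fell with palbociclib. *LGALS3BP* went from 1282, 3905 and 3563 to 2334, 6885 and 5687 after knockdown, called higher in every line. With palbociclib it went from 1932, 4774 and 3738 to 2472, 8776 and 7531, called in RS4;11 and BV-173. Its mean change was 0.79 ± 0.14 (SE over 3 lines, adjusted p = 0.0637, limma) after knockdown, the smallest adjusted p of the set for that treatment, and 0.75 ± 0.14 (SE over 3 lines, adjusted p = 0.00711, limma) with palbociclib. *IFI44* went from 57.9, 291 and 31.3 to 41.6, 150.2 and 19.7, changed by -0.69 ± 0.19 (SE over 3 lines, adjusted p = 0.0296, limma), and had knockdown log2 ratios of -0.80, -0.52 and -0.19.

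*IFI6*, which protects mitochondria from death signals, was lower after knockdown in NALM-6 (327 to 181) and higher with palbociclib in BV-173 (27.0 to 57.1). *XAF1*, an antagonist of the apoptosis inhibitor XIAP, had knockdown log2 ratios of -0.72, -0.47 and -0.56, called in NALM-6, and was lower with palbociclib in BV-173 (1988 to 694). *IFI35* was called nowhere. *IFI27*, *IFI44L* and *EPSTI1* had a mean level under 10 in all 6 comparisons and were called in none. These 3 are among the strongest interferon-induced genes in blood cells, and their levels here ranged from 0.15 to 11.1.

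Several of the genes are neighbours on a chromosome, and in 2 such clusters limma called neighbours in opposite directions with palbociclib. *HERC6* (chr4:88378852-88443097) and *HERC5* (chr4:88457119-88506163) lie next to each other on GRCh38.p14, and *HERC6* rose while *HERC5* fell. In NALM-6 the log2 ratios were 2.30 and -2.43. In the cluster of *OAS1* (chr12:112906962-112933219), *OAS3* (chr12:112938474-112973251) and *OAS2* (chr12:112978519-113011723), *OAS2* rose and *OAS3* fell, and *OAS1* was called in neither direction.

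Knockdown and palbociclib, which had separate controls, gave changes that ran in parallel across the genes of a line. Across genes, which are not independent replicates, Pearson's r between the log2 ratios of the treatments was 0.63 in NALM-6 (38 genes), 0.80 in RS4;11 (40 genes) and 0.64 in BV-173 (37 genes), beside 0.67, 0.80 and 0.53 over all genes of those lines. Between lines, r of the set was below that of all genes in 5 of 6 pairs. With palbociclib r was 0.43 between NALM-6 and RS4;11 and 0.35 between NALM-6 and BV-173, where all genes gave 0.76 and 0.66, and 0.70 between RS4;11 and BV-173, where all genes gave 0.69. After knockdown r was 0.48 between NALM-6 and RS4;11, 0.06 between NALM-6 and BV-173 and 0.37 between RS4;11 and BV-173, where all genes gave 0.66, 0.38 and 0.51. The share of genes that changed in the same direction with palbociclib went the other way. It was 76.9% between NALM-6 and RS4;11 and 73.0% between NALM-6 and BV-173, beside 74.3% and 69.5% over all genes. After knockdown this share was 55.3% between NALM-6 and RS4;11 and 59.5% between RS4;11 and BV-173, beside 73.5% and 65% over all genes. Between NALM-6 and BV-173 it was 61.1%, beside 60.1% over all genes. The points share the shRNA or drug and the authors' processing.

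**Figure D5:**
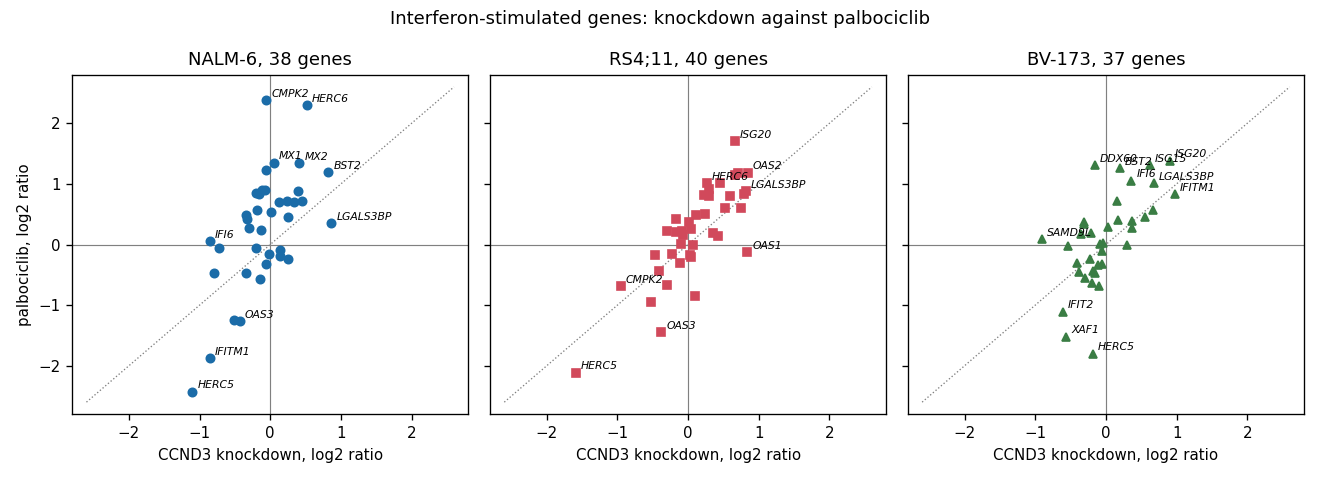
Log2 ratio after knockdown (horizontal) against log2 ratio with palbociclib (vertical) in each line, 1 symbol per gene at sufficient level under both treatments, with the line of equal change dotted and some of the outer genes labelled. Most genes far from 0 lie farther out on the palbociclib axis, and *HERC5* is the lowest symbol in each panel.

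For the difference of the changes, knockdown less palbociclib, limma called 0 of 11800 genes (0%), and 6 of the 39 genes of the set had an unadjusted p under 0.05 (15.4%; all genes 13.6%). The difference was 1.15 ± 0.35 for *HERC5* (SE, adjusted p = 0.269, limma) and -0.85 ± 0.31 for *ISG20* (adjusted p = 0.304, limma). With the cell line as a further term, so that the treatments were compared within lines, limma called 491 of 11800 genes (4.16%). Of the 39 genes of the set it called 3. These were *HERC5* (1.15 ± 0.22, limma adjusted p = 0.0443), *ISG20* (-0.85 ± 0.16, limma adjusted p = 0.0425) and *SAMD9L* (-0.96 ± 0.19, limma adjusted p = 0.0474). The larger fall of *HERC5* and the larger rise of *ISG20* with palbociclib thus passed the threshold only in that fit. The separate controls also differed for these genes. The scrambled share was 0.60, 0.89 and 0.60 times the DMSO share for *HERC5*. It was 1.63, 1.35 and 0.82 times for *ISG20*, and 1.87, 1.12 and 0.62 times for *SAMD9L*. The part of these control differences in the result was not tested. *LGALS3BP* and *PARP14* differed by 0.04 ± 0.19 and 0.02 ± 0.13 between the treatments (SE, limma without the line term).

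Of 53 further genes of the interferon pathway, 10 were interferon ligands, with only *IFNA1* and *IFNA2* from the alpha family. These 10 were listed rarely and never above a level of 1.13, so that none entered a call. Other interferon ligand genes were not looked up. *IFNB1* was listed only in BV-173 (1.13 with DMSO and 0.80 with palbociclib). Of 40 further pathway genes in the limma test, 6 rose (15.0%; all genes 12.7%) and 5 fell (12.5%; all genes 16.5%) with palbociclib, shares near those of all genes. After knockdown limma called none of the 40, and 6 had an unadjusted p under 0.05 (15.0%; all genes 21.0%). The receptor genes *IFNAR1* and *IFNAR2* and the kinase genes *JAK1* and *TYK2* were called in neither direction, and *IFNAR2* passed 1.5-fold only after knockdown in NALM-6 (252 to 381).

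The lambda interferon receptor gene *IFNLR1* went from 161, 371 and 223 with DMSO to 279, 865 and 590.4 with palbociclib and rose by 1.14 ± 0.15 (SE over 3 lines, adjusted p = 0.00263, limma). *IRF8*, a factor of B-cell and myeloid development, went from 69.6, 811 and 113 to 129, 1464 and 674 and rose by 1.43 ± 0.32 (SE over 3 lines, adjusted p = 0.0144, limma). *CGAS*, the sensor of cytosolic DNA, went from 189, 568 and 625 to 64.9, 217 and 287 and changed by -1.34 ± 0.16 (SE over 3 lines, adjusted p = 0.0018, limma). These 3 were each called in the same direction in all 3 lines. The other genes that rose were *MYD88*, *PTPN6*, *UBA7* and *TLR9*, and the others that fell were *IFNGR2*, *TREX1*, *TBK1* and *PIAS1*. *UBA7* encodes the enzyme that activates ISG15, and it had palbociclib log2 ratios of 0.14, 0.90 and 0.75. *IRF1*, which maintains part of the set without interferon, was lower after knockdown in NALM-6 (1986 to 1026) and higher with palbociclib in RS4;11 (1349 to 2067).

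The scrambled and DMSO control groups differed in this set in NALM-6 and, the other way, in BV-173. Compared as shares of the column total, 11 of 40 genes were at least 1.5-fold higher and 1 was lower in scrambled than in DMSO cells, with a median log2 ratio of 0.36, against 14.5% higher, 2.75% lower and a median of 0.14 over all genes. In RS4;11, 1 of 40 was higher and 1 lower (median -0.01), beside 6.91% and 1.98% of all genes (median -0.01). In BV-173, 0 of 37 were higher and 5 lower (median -0.30), beside 5.00% and 6.45% of all genes (median -0.01). *MX1* stood at 71.7 with DMSO, 185 with palbociclib, 205 with scrambled shRNA and 213 after knockdown in NALM-6. *CMPK2* showed levels of 12.6, 70.3, 50.1 and 48.1 in the same 4 groups, and *HERC5* of 2649.7, 492, 1491 and 694. *MX2* showed levels of 86.7, 221, 219 and 292. For *MX1*, *CMPK2* and *MX2* the DMSO group was the low one of the 4. Of the 15 genes called higher with palbociclib in NALM-6, 8 also had at least 1.5-fold more share in scrambled than in DMSO cells (*MX1*, *MX2*, *ISG20*, *CMPK2*, *SAMD9L*, *USP18*, *HERC6* and *IRF9*), beside 47.2% of all genes called higher there. In RS4;11 and BV-173, 0 of 14 and 0 of 8 did, beside 22.1% and 13.8%. The transduced and the drug-treated cells were prepared in different ways and normalized in different tables, which cannot be told apart from a difference between these controls.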

How the data were processed

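The authors prepared oligo-dT RNA libraries, and per the labels their processing named Bowtie2, RSEM, DESeq2 and the build hg38, with no versions. The deposited tables, 1 for each of 6 comparisons, held for each gene a signal per group, which the authors had estimated with RSEM and scaled within the pair of groups with DESeq2. They also held the authors' own log2 fold changes, p-values and adjusted p-values, which were not used. For each gene, the ratio of its signals in the compared groups gives back the deposited fold change, so the levels of low genes are drawn towards each other. The column totals lay between 17.8 and 20.8 times 1000000 after this scaling and are not depths. No values per sample were used here, so depth and replicate spread are unknown and no count model could be fitted.

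Samples were grouped by line and treatment as labelled, and columns were read through their names. The 43 genes were found by symbol, and the lists of roles, 53 further pathway genes and 27 cell markers were written with earlier results of these data known, so they are no independent support for each other. Log2 ratios used a pseudocount of 1, and calls within a line a fold of 1.5 and a mean level of 10. Over lines, lmFit and eBayes with a variance trend (limma 3.58.1, R 4.3.3) were applied to the 6 log2 ratios of 11800 genes listed in all tables with a mean level of at least 10, with Benjamini-Hochberg adjustment over all of them. Genes were named in full when called in at least 3 comparisons, called in opposite directions in 2 lines under 1 treatment, called by limma, or among the 6 highest in control share. Other genes were named by their role group after their values were seen. Among the pathway genes, 1 is counted but not reported here on its own. Alternatives were a pseudocount of 10 or 0, a minimum level of 50 or none, a fold of 2, centred ratios, no variance trend, the cell line as a further term and leaving out each line. The limma fit was also run on simulated data, in which the ratios of the treatments were drawn independently of each other. In the real data they were correlated within a line, so that run does not show how the fit behaves here. Tables were handled with pandas 2.3.3 and numpy 2.4.6 under Python 3.11.15, and plots were drawn with matplotlib 3.10.9.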

Additional observations from a re-analysis of the deposited data

Results flagged for a closer look

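In 6 cases genes of the set passed 1.5-fold in opposite directions in different lines under the same treatment. With 1 value per group these differences between lines were not tested. The distance between the highest and the lowest log2 ratio was largest for *CMPK2* with palbociclib, 3.07 between NALM-6 and RS4;11. The NALM-6 ratio rests on a DMSO level of 12.6, near the minimum of 10, while the scrambled control of that line stood at 50.1. *IFITM1* differed by 2.70 with palbociclib and by 1.83 after knockdown, in each case between NALM-6 (lower) and BV-173 (higher). *OASL* differed by 2.43 with palbociclib between RS4;11 (higher) and NALM-6 (lower), at levels of 10.4 to 26.2. *IFIT2* differed by 1.95 between NALM-6 (higher) and BV-173 (lower), and *USP18* by 1.70 between NALM-6 (higher) and RS4;11 (lower), both with palbociclib.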

How the results depend on the processing

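No paired analysis was possible between replicate samples because the columns hold 1 value per group and carry no replicate numbers. The treatments were paired by line only, in the fit with the cell line as a further term. The 408 recomputed log2 ratios of the 23 genes named in full moved by less than the SD over lines and none changed sign. These are ratios within a line, which leaving out another line does not alter. Mean changes over lines were less stable after knockdown. Among the genes called by limma with palbociclib, the mean knockdown change reversed for *OAS2* (0.22 to -0.09 without RS4;11), *ISG15* (0.21 to -0.003 without BV-173) and *HERC6* (0.16 to -0.02 without NALM-6). At a fold of 2, CCND3 knockdown left 0 of 38 higher and 1 lower in NALM-6 (all genes 2.53% and 3.8%). It left 0 of 40 and 1 in RS4;11 (all genes 3.32% and 4.62%) and 0 of 37 and 0 in BV-173 (all genes 0.534% and 0.49%). With palbociclib at that fold, 6 of 39 were higher and 4 lower in NALM-6 (all genes 9.11% and 7.96%). In RS4;11, 6 of 40 were higher and 2 lower (all genes 6.59% and 7.89%), and in BV-173 6 of 37 and 3 (all genes 5.03% and 5.94%). With a minimum level of 50, lower calls came to 1 in BV-173 after knockdown, and with palbociclib to 2 in NALM-6 and 3 in BV-173, beside 4.68%, 18.0% and 14.3% of all genes. After knockdown, a pseudocount of 10 left 7 higher in RS4;11 (all genes 8.84%) and 1 lower in BV-173 (all genes 4.20%). With palbociclib it left 4 lower in BV-173 (all genes 13.4%). Over the lines, limma called 4 higher and 1 lower with palbociclib without NALM-6, and 1 higher and 1 lower without RS4;11, where 10.6% and 9.70% of all genes were called in place of 29.2%. *BST2* and *HERC5* were called under each alternative, with adjusted p from 0.00154 to 0.0366 and from 0.00182 to 0.0388. The highest adjusted p of the other 11 lay between 0.0540 (*OAS3*) and 0.210 (*IFI44*), reached when a line was left out. Without the variance trend *OAS2* was lost (adjusted p = 0.0513) and *IFIT1* gained. With the cell line as a further term, 1 of 39 genes of the set was called higher and 2 lower for knockdown less palbociclib, beside 4.16% of all genes in either direction. With 2 lines left, the fit has fewer samples.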

Other observations

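The ISRE core also occurs in the promoters of genes outside the set, whose median changes lay near 0. With palbociclib, genes outside the set that held the core and reached the minimum level had a median log2 ratio of 0.01 in NALM-6 (369 genes), 0.04 in RS4;11 (384 genes) and 0.02 in BV-173 (371 genes), beside -0.02, -0.01 and -0.01 for genes without it. They were called higher in 19.0%, 17.7% and 14.3% and lower in 15.4%, 10.7% and 13.7% of cases, beside 17.9%, 15.4% and 13.9% higher and 17.6%, 16.3% and 14.1% lower for genes without the core. After knockdown the medians with the core were 0.03, 0.03 and -0.04. No test was made on these groups.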
